A study of Mus musculus with 24 samples.

Results

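Gene expression was compared between 3 Chronic IFNG KP libraries and 3 Parental KP libraries, which are 6 of the 24 libraries of the series. They were taken by their group labels, and all 36040 genes of the KP table were considered. KP is a genetically engineered mouse lung cancer model that carries p53 flox/flox, and every KP group shares its alleles. Tumour cells were injected into mice, tumours were taken on day 15, and live CD45- cells were sorted, so that CD45+ leukocytes were gated out while other host cells without CD45 could remain. The series describes Chronic IFNG KP as exposed to interferon gamma (IFNG) at a low level over a long time, without saying whether before or after injection, and Parental KP is the line without that exposure. The labels list no treatment of the tumours themselves and do not say whether the exposed line was 1 clone or a pool, how long that exposure lasted, or whether each library came from its own animal. The p-values thus measure the spread between libraries within groups, estimated over all 15 KP libraries. The other KP groups, 1st relapse, 2nd relapse and Late relapse KP, were from tumours that had relapsed under immune checkpoint blockade, with 9 libraries in all, and the same chronic against parental pair existed in the Lewis lung carcinoma line LLC1, with 3 libraries per group.

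IFNG is a cytokine of T and NK cells. It binds a receptor made of Ifngr1 and Ifngr2, the kinases Jak1 and Jak2 pass the signal on, and GAS elements in DNA serve to switch on genes for antigen presentation, chemokines, cell-autonomous defence and the checkpoint ligand Cd274 (PD-L1). In KP lung cancers the alveolar programme driven by Nkx2-1 can be lost, and tumours without it often show genes of stomach and gut epithelium.

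Values are normalised read counts calculated back from the deposited log2-scale values, given for the 3 libraries of a group in the order of their replicate numbers and as mean ± SD (n = 3). Log2 differences are on the deposited scale, which compresses changes of weakly expressed genes, so a fold of counts can exceed its log2 difference. A gene was tested when the mean of at least 1 KP group lay 1 log2 unit above the lowest value, near 144.2 normalised counts, and was called at a limma p-value below 0.05 after Benjamini-Hochberg adjustment over the 11193 genes tested. Of these, 1431 were called higher in Chronic IFNG KP (12.8%) and 1007 lower (9.0%), and 3803 had an unadjusted p below 0.05. The median difference over all tested genes was -0.008. Increases were larger than decreases: 128 called genes were higher by at least 1 log2 unit and 3 were lower by as much (Nnat, Map2 and Piezo2). The 6 libraries held an estimated 19.2 to 31.4 M fragments and 24769 to 30700 detected genes. Without Chronic IFNG KP 1 the count fell to 1583 called genes, 1069 higher and 514 lower, and without Parental KP 1 the genes called lower numbered 642. Centring each library on its median turned the split to 1291 higher and 1508 lower.

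The largest increases in Chronic IFNG KP tumours included several genes of mucosal and gut epithelium. Dmbt1 (chr7:131032053-131121630), a secreted scavenger-receptor protein of mucosal surfaces, had 75618, 44265 and 72555 counts in Chronic IFNG KP, against 11242, 7886 and 8009 in Parental KP. It was 7.09-fold higher (log2 difference 2.73 ± 0.22 SE, adjusted p = 4.1e-06) and its groups did not overlap. The 15 largest increases and 15 largest decreases named were chosen for groups without overlap, so that is no separate result for them. The trefoil factors Tff1 and Tff2, small stabilisers of stomach mucus that lie beside each other on chr17 (Tff2 at 31141049-31144282 and Tff1 at 31161395-31165277), followed. Tff2 had 4765, 2399 and 5968 counts in Chronic IFNG KP, against 521, 175 and 176 in Parental KP (15.1-fold, adjusted p = 1.2e-05). Tff1 had 2575, 1485 and 4258 counts in Chronic IFNG KP, against 406, 63.8 and 72.3 in Parental KP (15.3-fold, adjusted p = 2.5e-05). Both trefoil genes were higher in Parental KP 1 than in the other parental libraries, yet that library stayed below every Chronic IFNG KP library.

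Other gut and stomach genes moved with them. Lgals4 (galectin-4, a lectin of gut epithelium, chr7:28833854-28841708) averaged 6015 ± 1715 counts in Chronic IFNG KP and 782 ± 294 in Parental KP, a 7.69-fold difference (adjusted p = 4.2e-06). Pigr (chr1:130826684-130852249), which carries IgA and IgM across epithelia, had the largest ratio of the genes named here, at 1834, 815 and 1847 counts in Chronic IFNG KP, against 83.7, 27.8 and 24.4 in Parental KP (33.1-fold, adjusted p = 4.2e-06). Ctse, an aspartic protease of the stomach, averaged 4722 ± 1319 in Chronic IFNG KP and 707 ± 234 in Parental KP. Muc1, a membrane mucin, averaged 2595 ± 744 in Chronic IFNG KP and 341 ± 143 in Parental KP. Olfm4, a secreted glycoprotein that marks intestinal crypt stem cells, had 1721, 825 and 1735 counts in Chronic IFNG KP, against 172, 74.5 and 81.3 in Parental KP. The tight junction pore protein Cldn2 was 5.04-fold higher, the plasma selenium carrier Selenop 5.49-fold, Prom1 (CD133) 4.82-fold, the integrin activator Fermt1 6.91-fold and the mucin O-glycan branching enzyme Gcnt3 6.64-fold, all with adjusted p of at most 1.1e-05 and without overlap between groups.

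**Figure D1:**
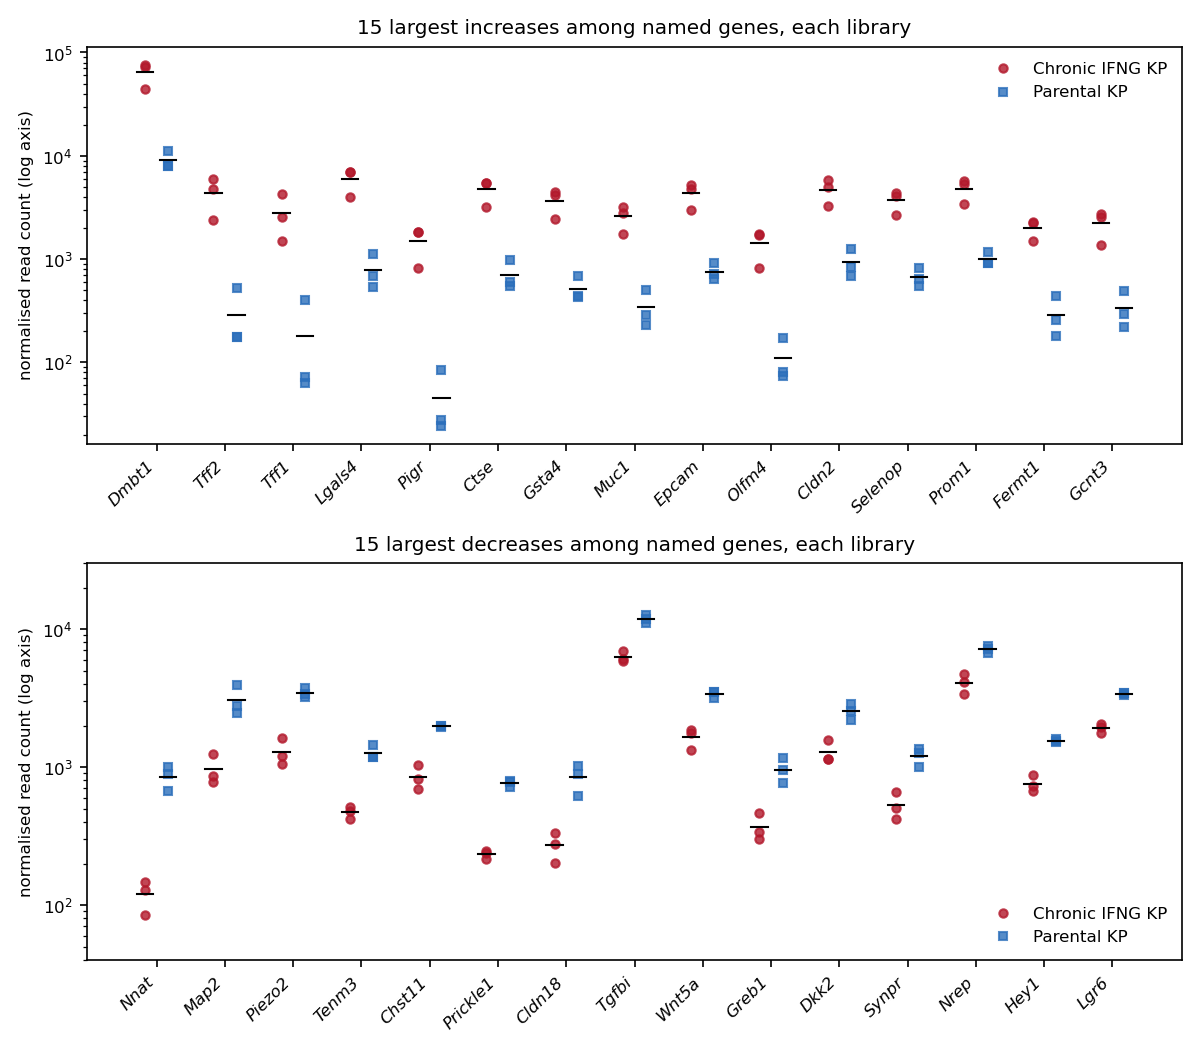
Normalised read count (log axis) of the 15 named genes with the largest increases (top) and the 15 with the largest decreases (bottom), 1 point per library with Chronic IFNG KP left of Parental KP and a bar at each group mean. In every gene shown the 3 libraries of one group lie above the 3 of the other, a condition these genes were chosen by, and Chronic IFNG KP 2 is the lowest of its group for all 15 increases.

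Genes of epithelial cells were then counted in 2 lists. Over all tested genes 12.8% were higher and 9.0% lower, the shares to set beside every list count against Parental KP below. Among 31 tested genes of cell junctions, keratins and epithelial regulators, 25 were higher and 0 lower in Chronic IFNG KP, with a median log2 difference of 0.59. Epcam (chr17:87635979-87651129), the epithelial adhesion molecule, had 5229, 2965 and 4813 counts in Chronic IFNG KP, against 635, 725 and 914 in Parental KP (5.72-fold, log2 difference 1.92 ± 0.17 SE, adjusted p = 4.3e-06). The simple-epithelium keratin Krt7 averaged 6307 ± 1065 counts in Chronic IFNG KP and 1547 ± 279 in Parental KP. Elf3, an epithelial ETS transcription factor, averaged 1630.1 ± 393 in Chronic IFNG KP and 247 ± 69.6 in Parental KP, and Spint2, an inhibitor of membrane serine proteases, 1990.3 ± 405 in Chronic IFNG KP and 478 ± 55.2 in Parental KP. The E-cadherin gene Cdh1, chosen after its values were seen, rose 2.17-fold (adjusted p = 1.2e-05). Leaving out 1 library at a time gave 22 to 26 genes called higher.

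Among 22 tested lung and gut lineage genes, 14 were higher and 3 lower, with a median of 0.54, and 12 to 14 were higher with any 1 library left out. Besides Tff1, Tff2, Lgals4, Ctse and Muc1, the liver and gut transcription factor Hnf4a averaged 2058 ± 561 counts in Chronic IFNG KP and 385 ± 173 in Parental KP (adjusted p = 5.2e-06). Vil1, the actin bundler of the brush border, averaged 1174 ± 322 in Chronic IFNG KP and 162 ± 37.3 in Parental KP (adjusted p = 4.1e-06). Hnf4a and Vil1 were named after their values were seen. The 3 lower members were Cldn18, Sox2 and Hmga2. Cldn18, a tight junction gene with lung and stomach forms, had 277, 331 and 203 counts in Chronic IFNG KP, against 888, 1017 and 619 in Parental KP (a log2 difference of -0.88, adjusted p = 3.2e-05). The embryonic factors Sox2 and Hmga2 had log2 differences of -0.31 and -0.30. Nkx2-1 itself was below the filter, with 3.59 ± 2.66 counts in Chronic IFNG KP and 5.48 ± 2.52 in Parental KP. This defining factor of alveolar cells was thus near the floor in both groups of the labelled lung model. The surfactant gene Sftpd and the stomach gastrokines Gkn2 and Gkn1 were among the higher members, at log2 differences of 0.81, 0.81 and 0.44.

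Chronic IFNG KP 2 had the lowest value of its group in 128 of the 128 genes higher by 1 log2 unit or more, with a median of 0.97 log2 units above the parental mean, against 1.43 in Chronic IFNG KP 1 and 1.35 in Chronic IFNG KP 3. Parental KP 1 had the highest value of its group in 107 of them. Without Chronic IFNG KP 2 there were 188 called genes past 1 log2 unit in either direction, against 131 with it. In sorted bulk samples a change in the share of cells that express a gene and a change in RNA per cell cannot be told apart.

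**Figure D2:**
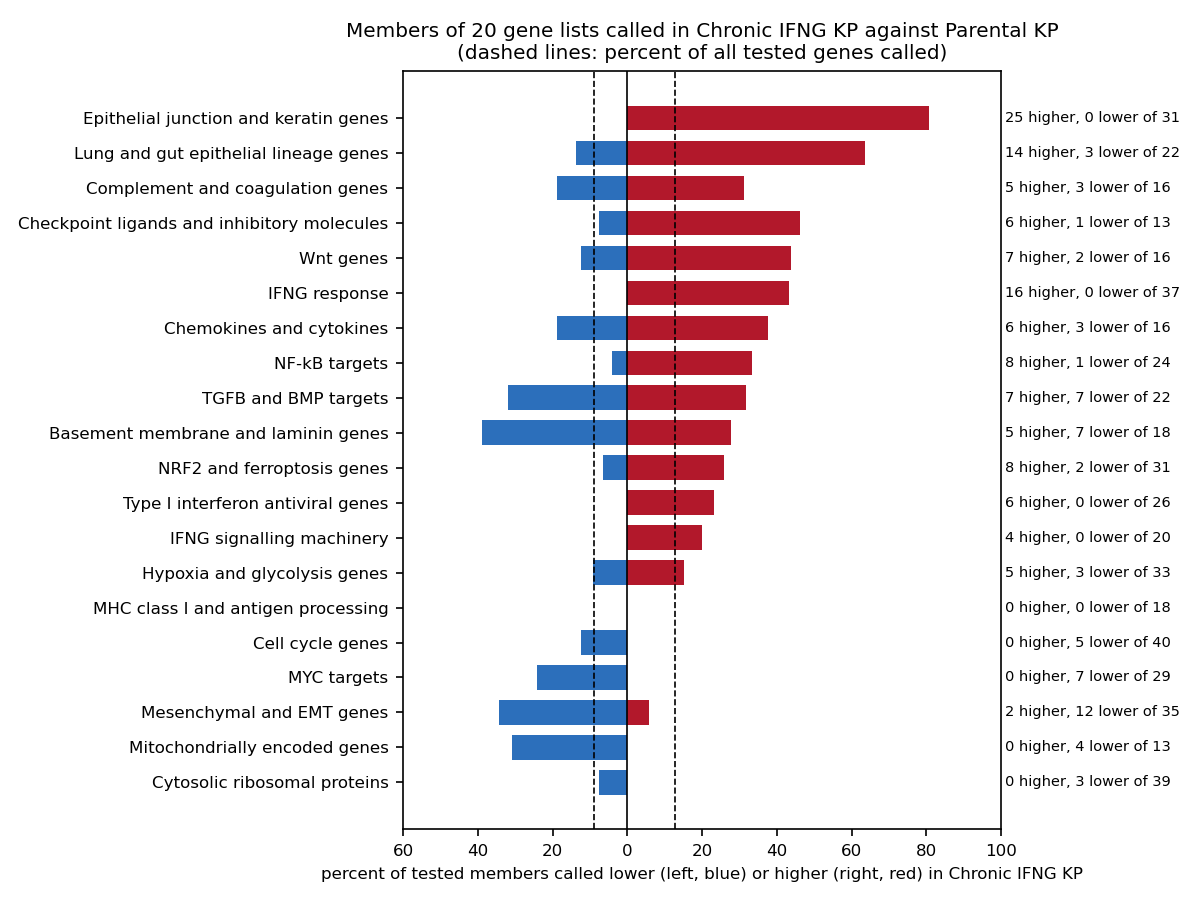
Percent of the tested members of 20 gene lists called lower (left, blue) or higher (right, red) in Chronic IFNG KP against Parental KP, with counts at the right and dashed lines at the 9.0% and 12.8% of all tested genes called. The 2 epithelial lists reach 25 of 31 and 14 of 22 higher, and the mesenchymal list 12 of 35 lower.

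Genes of the laminins and the basement membrane, the sheet that epithelia rest on, divided by subunit. Of 18 tested, 5 were higher and 7 lower, with a median of -0.13. The higher ones included the epithelial laminin chains Lama3 and Lamb3, with Agrn and Lamb2. Lama3 had 1575, 913 and 1728 counts in Chronic IFNG KP, against 246, 115 and 161 in Parental KP (8.09-fold, adjusted p = 4.2e-06). Lamb3 averaged 2690.3 ± 469 in Chronic IFNG KP and 1059.9 ± 273 in Parental KP, and the proteoglycan Agrn 5367 ± 329 in Chronic IFNG KP and 3613 ± 318 in Parental KP. The lower ones were the linker Nid1 (3520.1 ± 287 in Chronic IFNG KP and 4984 ± 69.2 in Parental KP), the collagen IV chains Col4a1, Col4a2, Col4a5 and Col4a6, and the widely expressed laminin chains Lamb1 and Lamc1. Without Parental KP 1, Chronic IFNG KP 1 or Chronic IFNG KP 3, 3 members were called higher instead of 5.

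Mesenchymal genes were lower in part. Of 35 tested genes of mesenchymal cells and epithelial-to-mesenchymal transition, 12 were lower and 2 higher (Cd44 and Spp1), with a median of -0.19. Sparc, a matrix glycoprotein, had 9688, 12688 and 11257 counts in Chronic IFNG KP, against 17040.0, 18180.0 and 17620.0 in Parental KP (log2 difference -0.63 ± 0.11 SE, adjusted p = 0.001). The receptor kinase Axl averaged 15014 ± 764 counts in Chronic IFNG KP and 21015 ± 1221 in Parental KP (adjusted p = 0.00035). Tnc (tenascin-C) averaged 9581 ± 2026 in Chronic IFNG KP and 14692 ± 1793 in Parental KP (adjusted p = 0.019), and the fibrillar collagen Col5a1 7433 ± 1027 in Chronic IFNG KP and 10461 ± 895 in Parental KP (adjusted p = 0.047). The last 2 calls were lost in several fits with 1 library left out, with an adjusted p of up to 0.098 for Tnc without Chronic IFNG KP 1 and 0.18 for Col5a1 without the same library. The list count was 4 without Chronic IFNG KP 1, 5 without Parental KP 1, 6 without Chronic IFNG KP 3 and 7 under quantile normalisation. The mean level of the list relative to the parental mean was -0.34, 0.03 and -0.14 log2 units in Chronic IFNG KP 1, 2 and 3, against -0.04, -0.02 and 0.06 in Parental KP, so that Chronic IFNG KP 2 lay within the parental range. The mean level of fibroblast markers was -0.30, 0.31 and -0.15 in Chronic IFNG KP 1, 2 and 3, against -0.13, -0.01 and 0.14 in Parental KP, with 0 of 15 markers called higher and 1 lower. Their part in the mesenchymal result was not tested.

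The 3 genes that were lower by 1 log2 unit or more were Nnat, Map2 and Piezo2. Nnat (neuronatin, an imprinted membrane protein of brain and endocrine cells) had 84.9, 147 and 128 counts in Chronic IFNG KP, against 887, 994 and 667 in Parental KP, 7.08-fold more in Parental KP (log2 difference -1.32 ± 0.09 SE, adjusted p = 1.7e-06). The dendritic microtubule protein Map2 had 861, 1245 and 777 counts in Chronic IFNG KP, against 2782, 2468 and 3914 in Parental KP (adjusted p = 6.6e-06). The mechanosensitive channel Piezo2 had 1209, 1618 and 1057 counts in Chronic IFNG KP, against 3384, 3211 and 3717 in Parental KP (adjusted p = 4.2e-06). None of these 3 genes overlapped between groups, a condition that the 15 largest decreases were chosen by. Tenm3, a cell adhesion protein of developing neurons, averaged 471 ± 47.9 counts in Chronic IFNG KP and 1275 ± 155 in Parental KP. The chondroitin sulfotransferase Chst11 averaged 847 ± 168 in Chronic IFNG KP and 1979 ± 15.5 in Parental KP, the planar polarity protein Prickle1 235 ± 15.7 in Chronic IFNG KP and 764 ± 39.4 in Parental KP, and the extracellular matrix protein Tgfbi 6292 ± 574 in Chronic IFNG KP and 11871 ± 840.0 in Parental KP. Hey1, a Notch target, averaged 758 ± 104 in Chronic IFNG KP and 1553 ± 44.1 in Parental KP, and Greb1, an oestrogen-responsive gene in breast cells, 370.2 ± 86.2 in Chronic IFNG KP and 959 ± 198 in Parental KP.

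Wnt genes went both ways. Wnt5a, a ligand that mostly signals without beta-catenin, had 1329.6, 1842 and 1779.9 counts in Chronic IFNG KP, against 3192, 3478 and 3498 in Parental KP (-0.86 log2 units, adjusted p = 9.7e-05). The secreted Wnt modulator Dkk2 averaged 1289.5 ± 239 in Chronic IFNG KP and 2545 ± 349 in Parental KP (adjusted p = 5.2e-05). The R-spondin receptor Lgr6, which is outside the Wnt list, averaged 1928 ± 139 in Chronic IFNG KP and 3398 ± 57.5 in Parental KP (adjusted p = 4.3e-05). Against these, 7 of 16 tested Wnt genes were higher and 2 lower. Lgr4, another R-spondin receptor, averaged 833 ± 183 counts in Chronic IFNG KP and 325 ± 38.8 in Parental KP (adjusted p = 2.2e-05). The ligand Wnt7a had 183, 137 and 195 counts in Chronic IFNG KP, against 32, 19.9 and 29.1 in Parental KP (adjusted p = 7e-06). Rnf43, Lgr5, Fzd1, Wnt4 and Ctnnb1 were the other 5 higher members, at log2 differences of 0.24 to 0.51.

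The IFNG pathway was examined from receptor to targets. Of 20 tested genes of the signalling machinery, 4 were higher (Ifngr1, Ifngr2, Irf8 and Crebbp) and 0 lower, with a median of 0.04. That is not far from the 12.8% of all tested genes called higher, beside 9.0% called lower. Ifngr1, the ligand-binding receptor chain, had 2466, 2166 and 2479 counts in Chronic IFNG KP, against 1789.7, 1818 and 1704 in Parental KP (log2 difference 0.33 ± 0.08 SE, adjusted p = 0.0056). Ifngr2, the second chain, had 1247, 821 and 1009.9 counts in Chronic IFNG KP, against 820.1, 658 and 699.8 in Parental KP (adjusted p = 0.027), with the lowest Chronic IFNG KP library next to the highest parental one. Its adjusted p reached 0.139 without Chronic IFNG KP 1. Without that library, or without Parental KP 2, 2 of these genes were called instead of 4. Jak1, Jak2, Stat2, Stat3, Irf9, Socs3 and Ptpn2 were not called, and their log2 differences ran from -0.06 to 0.10. Irf1, the transcription factor induced early by IFNG, had 1437, 1354 and 1465 counts in Chronic IFNG KP, against 1084, 1304 and 1240.4 in Parental KP and was not called (adjusted p = 0.078).

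Of 37 tested IFNG response genes, 16 were higher and 0 lower, against 12.8% and 9.0% of all tested genes, with a median log2 difference of 0.23. Their mean level relative to the parental mean was 0.32, 0.17 and 0.22 log2 units in Chronic IFNG KP 1, 2 and 3, against -0.08, 0.08 and 0.00 in Parental KP. Lgals3bp, a secreted scavenger-receptor glycoprotein, averaged 2899 ± 406 counts in Chronic IFNG KP and 1658 ± 269.6 in Parental KP (adjusted p = 0.00028). Casp1, the inflammasome protease, had 151, 88.7 and 119 counts in Chronic IFNG KP, against 3.9, 20.4 and 17.4 in Parental KP (log2 difference 0.61, adjusted p = 2.7e-05). The adhesion molecule Icam1 averaged 688 ± 119.6 in Chronic IFNG KP and 348 ± 11.5 in Parental KP (adjusted p = 0.0002). The immunity-related GTPase gene Tgtp2 had 222, 61.2 and 65.9 counts in Chronic IFNG KP, against 14.1, 21.2 and 0 in Parental KP (adjusted p = 0.017). It has a near-identical copy, Tgtp1, so reads may be split between them, and its adjusted p was 0.0944 without Chronic IFNG KP 1 and 0.0770 without Parental KP 3. Leaving out 1 library gave 11 to 17 IFNG response genes called higher, a filter on the mean of all KP libraries gave 10, and a filter at 3 log2 units, which few of these genes pass, gave 3.

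**Figure D3:**
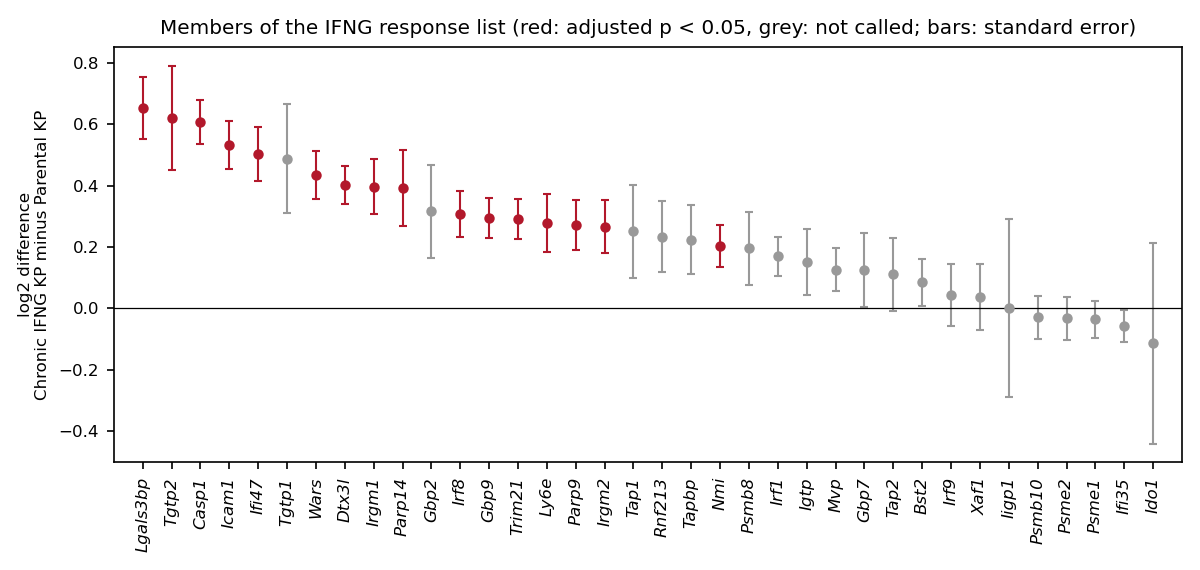
Log2 difference between Chronic IFNG KP and Parental KP for 36 of the 37 tested members of the IFNG response list, ordered by size, with bars for the standard error and red for genes called at an adjusted p below 0.05. The 16 called genes are all above 0, while Irf1 and Tap1 are not called.

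Antigen presentation genes gave no call. Of 18 tested MHC class I and processing genes, 0 were called in either direction by limma, with a median of 0.07. The class I heavy chain H2-K1 had 1536, 1209.5 and 1262 counts in Chronic IFNG KP, against 563, 962 and 951 in Parental KP. The groups did not overlap, and the log2 difference of 0.49 ± 0.17 SE had an adjusted p of 0.056, which crossed the threshold under 5 of the alternatives, at 0.0255 to 0.0469. H2-D1 averaged 2666 ± 340.2 in Chronic IFNG KP and 2207 ± 274 in Parental KP, B2m, the light chain, 3498 ± 223 in Chronic IFNG KP and 3948 ± 222 in Parental KP, and the peptide transporter Tap1 97.9 ± 35.3 in Chronic IFNG KP and 47.3 ± 21.7 in Parental KP. Class I genes are alike in sequence, so reads may be split between them. Cd274 was below the filter, with 28.7 ± 3.51 counts in Chronic IFNG KP and 34.9 ± 3.40 in Parental KP. Nlrc5, the class I transactivator, and Socs1, a feedback inhibitor, were also below it. The chemokines Cxcl9 and Cxcl10, which draw T cells, were weak as well: Cxcl9 averaged 22.6 ± 8.81 counts in Chronic IFNG KP and 2.28 ± 1.04 in Parental KP, without overlap, and Cxcl10 22.4 ± 11.7 in Chronic IFNG KP and 10.1 ± 6.92 in Parental KP, with overlap. In class II, H2-DMb1, which loads peptides, averaged 122 ± 35 in Chronic IFNG KP and 30.2 ± 8.93 in Parental KP (adjusted p = 0.0024) and was the 1 gene called of 3 tested.

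Type I interferon genes were partly higher, 6 of 26 tested, with 0 lower, against 12.8% and 9.0% of all tested genes. Samd9l, an antiviral and growth-restraining protein, had 1772, 1504 and 1785 counts in Chronic IFNG KP, against 418, 382 and 259 in Parental KP (4.78-fold, log2 difference 1.43 ± 0.14 SE, adjusted p = 5.5e-06). It had the largest log2 difference of any tested interferon gene here, without overlap between groups. Casp1 and Tgtp2, with fewer counts, differed by a larger fold of counts. Slfn2 averaged 344 ± 39.7 counts in Chronic IFNG KP and 134 ± 27.2 in Parental KP, and the double-stranded RNA sensor Ifih1 (MDA5) 197 ± 38.4 in Chronic IFNG KP and 87.6 ± 17.9 in Parental KP. The endosomal sensor Tlr3, which is outside the type I list, had 204, 166 and 241 counts in Chronic IFNG KP, against 29.5, 40.8 and 67.5 in Parental KP (adjusted p = 0.00018). It came from a list of nucleic acid sensors, of which 3 of 13 tested were higher and 1 lower, with a median of -0.02.

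Among checkpoint ligands and inhibitory molecules, 6 of 13 tested were higher and 1 lower, against 12.8% and 9.0% of all tested genes. Ceacam1, an adhesion molecule and TIM-3 ligand, averaged 820.2 ± 115 counts in Chronic IFNG KP and 228 ± 32 in Parental KP (adjusted p = 1.1e-05). Lgals9 (galectin-9, also a TIM-3 ligand) had 676, 387 and 649 counts in Chronic IFNG KP, against 161, 108 and 108 in Parental KP (adjusted p = 1.7e-05). Nectin2, a ligand of TIGIT and PVRIG, averaged 1690.5 ± 259 in Chronic IFNG KP and 1057 ± 14.3 in Parental KP. The lower gene was Cd276 (B7-H3), with 1244, 1390.5 and 1377 counts in Chronic IFNG KP, against 1792, 1817 and 1749 in Parental KP (adjusted p = 0.00013).

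Promoters were read for letters that known factors bind, in the 250 bases before the start site of RefSeq genes (GRCm38.p6). For 8540 tested genes a promoter was found by symbol. Of the 121 named genes with a promoter, 4 picked by hand are shown. They are Lgals4 and Epcam from the epithelial lists, Icam1 from the IFNG response list and Lgals9 from the checkpoint list. These are examples and do not stand for their lists, whose counts follow the sequences. Capitals mark the letters TTCNNNGAA (GAS, the IFNG-activated element) or GAAA repeated after any 2 bases (an ISRE core, bound by interferon regulatory factors), on either strand, where N is any base. The Lgals9 match is on the opposite strand. Each is written 5′ to 3′ on the strand of its gene.
Lgals4 (chr7:28833544-28833793, + strand): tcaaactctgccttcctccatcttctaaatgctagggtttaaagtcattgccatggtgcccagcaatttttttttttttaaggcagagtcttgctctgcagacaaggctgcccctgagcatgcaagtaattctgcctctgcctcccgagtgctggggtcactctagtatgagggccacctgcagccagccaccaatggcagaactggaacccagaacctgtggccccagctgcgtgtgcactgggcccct
Epcam (chr17:87635729-87635978, + strand): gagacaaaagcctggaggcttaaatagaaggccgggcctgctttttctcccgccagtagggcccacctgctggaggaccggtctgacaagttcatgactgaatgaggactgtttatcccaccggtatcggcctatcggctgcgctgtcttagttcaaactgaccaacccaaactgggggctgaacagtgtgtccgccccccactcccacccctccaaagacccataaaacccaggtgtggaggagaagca
Icam1 (chr9:21015690-21015939, + strand): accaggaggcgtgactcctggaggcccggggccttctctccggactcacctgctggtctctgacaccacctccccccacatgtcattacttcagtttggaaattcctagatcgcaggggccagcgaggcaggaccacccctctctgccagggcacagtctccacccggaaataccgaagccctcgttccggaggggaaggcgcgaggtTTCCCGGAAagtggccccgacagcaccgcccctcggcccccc
Lgals9 (chr11:78984925-78985174, - strand): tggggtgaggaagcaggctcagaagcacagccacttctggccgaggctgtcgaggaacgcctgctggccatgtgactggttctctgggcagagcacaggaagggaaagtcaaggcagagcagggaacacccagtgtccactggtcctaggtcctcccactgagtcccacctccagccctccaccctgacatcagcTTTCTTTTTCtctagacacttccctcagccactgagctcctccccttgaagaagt

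The GAS letters stand 42 bases before the start of Icam1 and the ISRE letters 55 bases before that of Lgals9, counted to the first base of the match. GAS letters were in 10 of 28 IFNG response promoters (35.7%), so most of that list lacked them, and in 4 of the 11 of them called higher (36.4%). They were in 5.88% of promoters of tested genes and 7.18% of all 27025 promoters searched. ISRE letters were in 8 of the same 28 (28.6%), against 2.59% of tested genes and 3.04% of all. Of the 85 promoters found for genes higher by 1 log2 unit or more, 0 held GAS letters and 1 held ISRE letters (1.18%), and of 34 promoters of the 2 epithelial lists 0 and 2 did. The letters TGANTCA, bound by AP-1, were in 7.06% of the promoters of genes called higher, 4.77% of genes called lower, 4.2% of tested genes and 6.87% of all promoters. CAAAGTNCA (bound by HNF4) was in 0.929%, 0.681%, 0.843% and 1.21% of the same sets. GAS and ISRE matches may overlap each other, and matches are letters in this window and not shown to be sites.

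Secreted immune genes included 6 of 16 tested chemokines and cytokines higher and 3 lower. Over all tested genes, 12.8% were higher and 9.0% lower, for this and the following lists. The neutrophil chemokine Cxcl5 had 1478, 388 and 609 counts in Chronic IFNG KP, against 108, 108 and 91.6 in Parental KP (log2 difference 1.27 ± 0.20 SE, adjusted p = 0.00035), with Chronic IFNG KP 1 far above its group. Il1rn, the IL-1 receptor antagonist, averaged 445 ± 86.8 in Chronic IFNG KP and 136 ± 21 in Parental KP, and the membrane-tethered chemokines Cx3cl1 and Cxcl16 were 2.1-fold and 2.26-fold higher. In the complement and coagulation list 5 of 16 were higher and 3 lower (Thbd, Plau and Plat). The alternative-pathway protease Cfb averaged 2229 ± 604 counts in Chronic IFNG KP and 408 ± 73.3 in Parental KP, the C3b-cleaving protease Cfi 1344 ± 387 in Chronic IFNG KP and 141 ± 44.7 in Parental KP, and tissue factor F3 1208 ± 223 in Chronic IFNG KP and 428 ± 52.4 in Parental KP, each with an adjusted p of at most 6.9e-06. Without Parental KP 2 or Chronic IFNG KP 1, 1 of the complement and coagulation genes was called lower instead of 3. NF-kB targets had 8 of 24 higher and 1 lower, among them Vcam1 (1.86-fold) and Nfkbiz (1.68-fold).

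In the cell death list, the pore-former of pyroptosis Gsdmd averaged 1139 ± 232 counts in Chronic IFNG KP and 477 ± 11.2 in Parental KP (adjusted p = 2.9e-05). The necroptosis effector Mlkl averaged 502 ± 49.6 in Chronic IFNG KP and 710.1 ± 127 in Parental KP (adjusted p = 0.012), a call lost without Parental KP 2 or Chronic IFNG KP 1. The list as a whole had 4 of 23 genes higher and 4 lower, with a median of 0.03. These shares are not far from the 12.8% and 9.0% of all tested genes. No member was called lower without Parental KP 2 or without Chronic IFNG KP 1. NRF2 and ferroptosis genes had 8 of 31 higher and 2 lower. The glutathione transferase Gsta4, which clears lipid aldehydes, had 4172, 2464 and 4441 counts in Chronic IFNG KP, against 680.3, 426 and 443 in Parental KP (7.15-fold, adjusted p = 5.1e-06). Gpx2, the gut glutathione peroxidase, averaged 415 ± 132 in Chronic IFNG KP and 43.3 ± 23.1 in Parental KP, the malic enzyme Me1 2047 ± 263 in Chronic IFNG KP and 793 ± 105 in Parental KP, and Gclc, which starts glutathione synthesis, 2557 ± 539.7 in Chronic IFNG KP and 1053 ± 21.4 in Parental KP. The 2 lower members were Txn1 and Fth1, and 0 to 3 members were called lower with 1 library left out.

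Growth and signalling lists were counted next, against the 12.8% of all genes called higher and 9.0% lower. Of 40 tested cell cycle genes 0 were higher and 5 lower, with a median of -0.05, and the count was 2 without Parental KP 2 or Chronic IFNG KP 1 and 3 without Parental KP 1. The S-phase transcription factor E2f1 averaged 266 ± 50.1 counts in Chronic IFNG KP and 449.5 ± 41.4 in Parental KP (adjusted p = 0.00039). MYC targets had 0 of 29 higher and 7 lower, 2 without Chronic IFNG KP 1 and 3 without Parental KP 1, Parental KP 2 or Chronic IFNG KP 3. The nucleolar protein Ncl averaged 6038 ± 818 in Chronic IFNG KP and 8128 ± 509 in Parental KP (adjusted p = 0.0056). Ribosomal proteins had 3 of 39 lower, oxidative phosphorylation genes 1 of 35 higher and 2 lower, and sterol and fatty acid genes 3 of 26 lower, with log2 differences of the called genes between -0.31 and 0.25. TGFB and BMP targets had 7 of 22 higher and 7 lower: the activin subunit Inhba averaged 3568 ± 792 in Chronic IFNG KP and 5799 ± 87.3 in Parental KP, while the Hippo and TGFB target Ccn2 averaged 4574 ± 609 in Chronic IFNG KP and 2524 ± 782 in Parental KP. Without Parental KP 1 or Chronic IFNG KP 3, 4 of them were lower. Trp53, floxed in this model, averaged 142 ± 8.63 in Chronic IFNG KP and 167 ± 23.6 in Parental KP (adjusted p = 0.3) and was not called. These counts are per gene and do not show the recombined exons.

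Stress and metabolic lists were also counted. p53 targets had 5 of 20 higher and 1 lower, led by the desmosomal protein Perp (1053 ± 181 counts in Chronic IFNG KP and 401 ± 45.1 in Parental KP, adjusted p = 1e-05), but 2 were higher without Parental KP 2. Hypoxia and glycolysis genes had 5 of 33 higher and 3 lower, near the 12.8% and 9.0% of all tested genes: the lactate exporter Slc16a3 averaged 802 ± 115 in Chronic IFNG KP and 299 ± 23.9 in Parental KP, and the carbonic anhydrase Car9 503 ± 134 in Chronic IFNG KP and 169.6 ± 60 in Parental KP. Unfolded protein response genes had 4 of 26 higher and 1 lower, also near those shares, among them Herpud1 and Xbp1 at 0.53 and 0.47 log2 units. Of 13 mitochondrially encoded genes 4 were lower (mt-Nd2, mt-Nd6, mt-Nd1 and mt-Cytb), with 2 lower without Chronic IFNG KP 1 and 7 without Chronic IFNG KP 2. Genes induced by heat and tissue dissociation had 2 of 20 higher (Hspb1 and Jund) and a median of 0.28, and their part in the other differences was not tested.

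Few host-cell markers other than those of fibroblasts passed the filter. Of 15 tested fibroblast markers, 0 were higher and 1 lower (Fbln2). Their summed level, in counts scaled to a common library total (CPM), was 2112 to 3340 CPM in Chronic IFNG KP and 2667 to 3149 in Parental KP. Of 15 endothelial markers only Flt1 was tested, with 2669 ± 176 counts in Chronic IFNG KP and 3525 ± 91.6 in Parental KP (adjusted p = 0.0011). The summed endothelial level was 118 to 128 CPM in Chronic IFNG KP and 155 to 172 CPM in Parental KP. Flt1 made up most of that sum, so the sum is no separate measure of endothelial cells. Of 10 pan-leukocyte markers 2 were tested, and the tetraspanin Cd53 averaged 1155 ± 226 in Chronic IFNG KP and 1939.9 ± 197 in Parental KP (adjusted p = 0.0031). The summed pan-leukocyte level was 58.2 to 76.5 CPM in Chronic IFNG KP and 87.1 to 125.5 CPM in Parental KP, and Cd53 made up most of it. The part of these cells in other differences was not tested. The gene for CD45, Ptprc, was below the filter, with 61.5, 66.5 and 64.2 counts in Chronic IFNG KP, against 43.5, 219 and 50.7 in Parental KP. Parental KP 2 also had the highest summed T and NK markers, 14.5 CPM against 5.05 to 8.56 in the other 5 libraries, and the highest B and plasma markers, 13.1 CPM against at most 5.14. Of 16 macrophage and dendritic markers, Cd14 was higher (1051 ± 259 in Chronic IFNG KP and 329 ± 26.9 in Parental KP) and Mrc1 and Lyz2 were not called. No T, NK, B or neutrophil marker passed the filter.

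**Figure D4:**
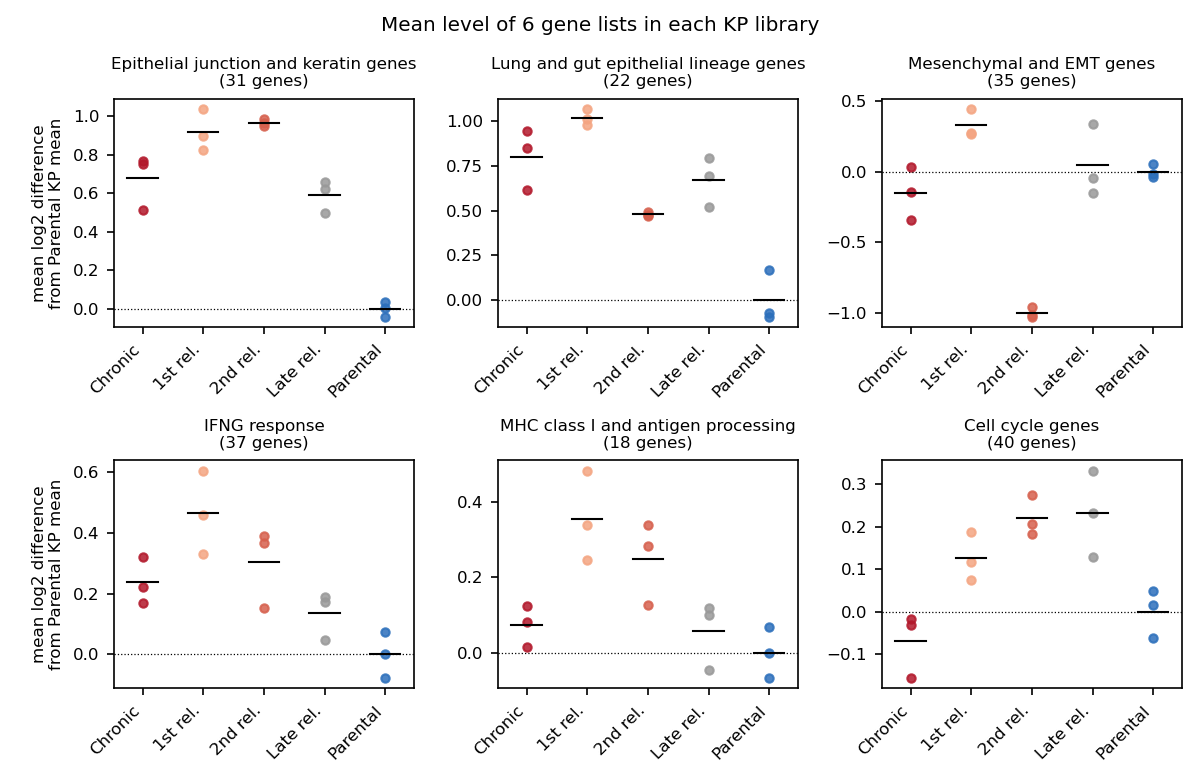
Mean log2 difference from the Parental KP mean over the tested members of 6 gene lists, 1 point per library and a bar per group, with Chronic IFNG KP at the left, the 3 relapse groups next and Parental KP at the right. Chronic IFNG KP lies at 0.51 to 0.77 for junction and keratin genes, near Late relapse KP. For cell cycle genes Chronic IFNG KP 1, 2 and 3 lie at -0.16, -0.02 and -0.03, against 0.01, 0.05 and -0.06 in Parental KP. Chronic IFNG KP 2 and 3 thus lie within the parental range there, and the 9 relapse libraries are above 0.

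Chronic IFNG KP was also compared with the mean of the 3 relapse groups, a comparison that shares its libraries with the one above. Here 2609 of 11193 genes were higher in Chronic IFNG KP (23.3%) and 3120 lower (27.9%). Against this mean, many growth and synthesis genes were lower: 33 of 40 cell cycle genes, 28 of 39 ribosomal proteins, 24 of 26 sterol and fatty acid genes and 21 of 35 oxidative phosphorylation genes, with 1, 0, 0 and 3 higher. The relapse groups were unlike in this. Ribosomal proteins had a mean level, relative to the parental mean, of -0.08 to 0.00 log2 units in Chronic IFNG KP, against -0.08 to 0.03 in 1st relapse, 0.35 to 0.43 in 2nd relapse and 0.11 to 0.13 in Late relapse KP. The 1st relapse libraries thus overlapped those of Chronic IFNG KP, and the other relapse groups lay above. For sterol and fatty acid genes the levels were -0.08 to -0.04 in Chronic IFNG KP, against 0.06 to 0.23, 0.72 to 0.88 and 0.35 to 0.45 in 1st, 2nd and Late relapse KP. Junction and keratin genes had 3 of 31 higher and 13 lower, and lineage genes 9 of 22 higher and 7 lower. IFNG response genes had 4 of 37 higher and 8 lower, and MHC class I genes 2 of 18 higher and 4 lower. H2-K1 averaged 1336 ± 176 counts in Chronic IFNG KP, against 3328 ± 941, 6878 ± 1438 and 3338 ± 306 in 1st, 2nd and Late relapse KP (log2 difference -1.36, adjusted p = 2.9e-06).

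The leading genes differed among the relapse groups. Tff2 averaged 4377 ± 1815 counts in Chronic IFNG KP, against 4405 ± 532, 5.16 ± 4.8 and 1509.9 ± 705 in 1st, 2nd and Late relapse KP. Pigr averaged 1499 ± 592 in Chronic IFNG KP, against 3682 ± 839.8, 21.2 ± 8.5 and 1021 ± 125 in the relapse groups. Olfm4 averaged 1427 ± 521 in Chronic IFNG KP, against 1561 ± 292, 24.2 ± 11.3 and 608 ± 196 in the relapse groups. For these 3 genes 2nd relapse KP had the lowest mean, below that of Parental KP. Krt7 averaged 6307 ± 1065 in Chronic IFNG KP, against 9414 ± 1383, 7799 ± 575 and 4511 ± 1114 in the relapse groups, all with means above that of Parental KP. Sparc averaged 11211 ± 1501 in Chronic IFNG KP, against 16478 ± 2287, 389 ± 39.3 and 14872 ± 2499 in the relapse groups, and Nnat 120.0 ± 31.8 in Chronic IFNG KP, against 2 ± 1.76, 2.74 ± 2.39 and 1.44 ± 1.56 in the relapse groups. Nnat was thus near 0 in all relapse groups, with Chronic IFNG KP between them and Parental KP. Cldn18 averaged 270.5 ± 64.3 in Chronic IFNG KP, against 29.5 ± 8.3, 145 ± 29.9 and 15.3 ± 10.5 in the relapse groups. Among genes called in the same direction against parental and relapse tumours, the named rule gave Tff2, Tff1, Olfm4, Pamr1 and Prune2 as highest and Sdc2, Abcb1a, Ncam1, Fxyd5 and Plat as lowest. The heparan sulfate proteoglycan Sdc2 averaged 372 ± 9.29 counts in Chronic IFNG KP, against 1598 ± 96.2, 856 ± 65.8 and 2398 ± 18.7 in the relapse groups and 659 ± 38.5 in Parental KP.

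The same contrast in LLC1 was set beside this one. In LLC1, 955 of 10581 tested genes were higher in chronic IFNG tumours (9.03%) and 1641 lower (15.5%). Without Parental LLC1 1 the counts were 507 and 1047, and the lower ones numbered 1029 without Chronic IFNG LLC1 2 and 1049 without Parental LLC1 2. The tables were normalised separately, so differences between the lines were not tested. IFNG response genes had 29 of 34 higher and 0 lower in LLC1, with a median of 0.46, against 16 of 37 and a median of 0.23 in KP. MHC class I genes had 8 of 18 higher in LLC1. Cell cycle genes had 35 of 40 lower in LLC1. Junction and keratin genes had 9 members tested, 1 higher and 4 lower. Mesenchymal genes had 16 of 34 higher and 5 lower, beside fibroblast markers with 11 of 15 higher and 0 lower in LLC1, whose part in that result was not tested. Epcam averaged 10.5 ± 12.8 counts in Chronic IFNG LLC1 and 12.8 ± 13.7 in Parental LLC1, and Krt7 28 ± 16.9 in Chronic IFNG LLC1 and 14.8 ± 5.25 in Parental LLC1, both below the filter in LLC1. Of the 128 genes higher by 1 log2 unit or more in KP, 25 were tested in LLC1, with 7 higher, 2 lower and 16 not called there. Of the largest KP increases, Selenop averaged 306 ± 113 counts in Chronic IFNG LLC1 and 279.7 ± 63.1 in Parental LLC1 (adjusted p = 0.79).

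**Figure D5:**
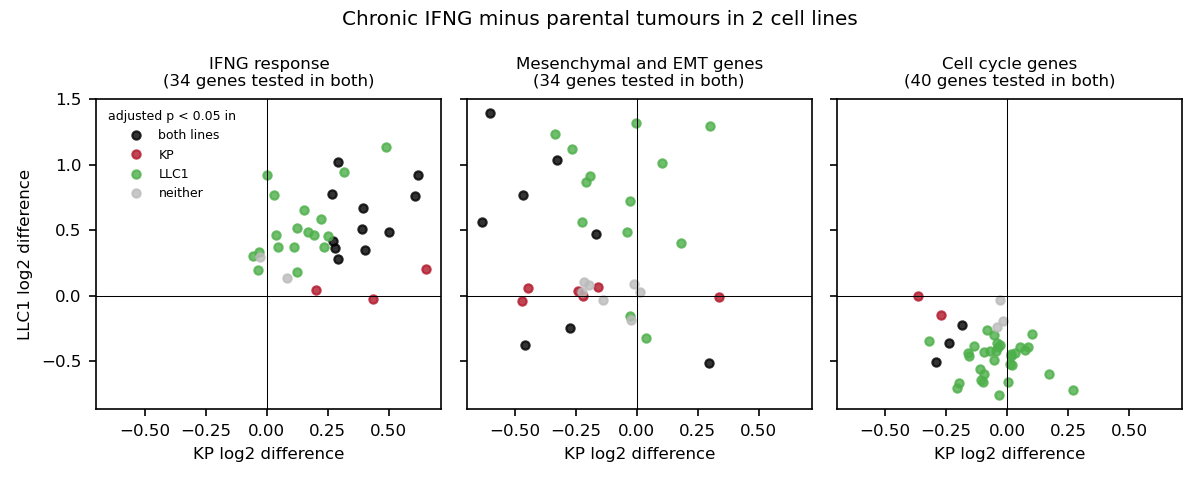
Log2 difference between chronic IFNG and parental tumours in KP (horizontal axis) and LLC1 (vertical axis) for genes tested in both lines, in 3 lists, coloured by the line in which the adjusted p was below 0.05. IFNG response genes lie mostly in the upper right, mesenchymal genes mostly left of 0 with LLC1 values up to 1.4, and cell cycle genes mostly below 0 in LLC1.

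Over the 9822 genes tested in both lines, 115 were higher in both, which is 13.5% of the 853 KP increases and 13.5% of the 849 LLC1 increases. Another 115 were higher in KP and lower in LLC1, which is 13.5% of the KP increases and 7.52% of the 1530 LLC1 decreases. A further 207 were lower in both, 23.2% of the 893 KP decreases and 13.5% of the LLC1 decreases, and 105 were lower in KP and higher in LLC1, 11.8% of the KP decreases and 12.4% of the LLC1 increases. Of all 9822 genes, 8.64% were higher and 15.6% lower in LLC1. Across these genes the 2 sets of differences had a Pearson correlation of 0.0937, a description over genes that share 6 libraries per line. Samd9l was higher in both lines, at 3181 ± 317 counts in Chronic IFNG LLC1 and 2159 ± 192 in Parental LLC1 (adjusted p = 0.0018), as were Casp1 and Cfb.

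By chromosome, genes called higher were 77 of 332 tested on chromosome 16 (23.2%), with 5 lower (1.51%), and 152 of 770 on chromosome 7 (19.7%), with 29 lower (3.77%). Chromosome 13 had 32 of 450 higher (7.11%) and 78 lower (17.3%). The median differences on these chromosomes were small, at 0.0867, 0.0626 and -0.074. In 420 windows of 5 Mb with at least 8 tested genes, the median lay within 0.1 log2 units in 90.2%. The highest median was 0.256 on chromosome 9 (90000001-95000000), where 4 of 8 genes were higher and 1 was lower. The lowest, -0.689 at chromosome 9 (1-5000000), holds the satellite-like transcripts Gm10718 and Gm10721. Of 12 tested satellite-like transcripts 0 were called, their groups overlapped, and their summed level was 1261 to 4710 CPM in Chronic IFNG KP and 2919 to 13200 in Parental KP, highest in Parental KP 2 and lowest in Chronic IFNG KP 3.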

How the data were processed

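Total RNA of CD45- cells sorted from tumours was sequenced (TruSeq Stranded Total RNA, NovaSeq, paired-end, per the labels' protocols). The authors deposited 1 table per cell line of variance-stabilised values on a log2 scale, normalised separately in each table. Per the submitters' processing notes, cutadapt 2.9, Salmon 1.8.0, DESeq2 1.34.0 and GRCm38/mm10 were used, with no role given. Normalised counts were calculated back from the deposited log2 values, the lowest of which was taken as a count of 0. Total fragments were estimated from the steps between low values, of which 69.08 to 76.91% lay within 0.15 of a whole number, against 30% for evenly spread values, so depths are approximate. Raw counts were not used here, so no count model was run.

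Genes were tested with limma 3.58.1 (R 4.3.3, trended variance, 1 fit of all 15 KP libraries or all 9 LLC1 libraries) on the deposited log2 values, with Benjamini-Hochberg adjustment. A gene was kept when at least 1 group mean was 1 log2 unit above the lowest value (11193 of 36040 in KP, near 144.2 normalised counts, and 10581 of 31618 in LLC1). With 3 libraries against 3, an exact permutation test cannot go below 0.1. The fit was tested on simulated data. Symbols and coordinates are from GENCODE vM21 (GRCm38), and promoters from RefSeq (GRCm38.p6). The genes named are the 15 highest and 15 lowest called genes with separate groups and a mean 2 log2 units above the lowest value, up to 4 members per list, a panel of IFNG genes, and 5 genes each way against relapse. Others were chosen after their values were seen, among them every further list member named. The members and lists were chosen with earlier results of these data known. Alternatives changed the filter, scaling, variance model, pseudocount, samples fitted and library weights, added the replicate number, or left out each library. Some genes of the panel and lists are counted but not reported here by name.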

Additional observations from a re-analysis of the deposited data

Results flagged for a closer look

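For 14 of the 183 named genes, the 3 chronic IFNG libraries moved one way in KP and the opposite way in LLC1, against parental tumours. Their groups did not overlap in either line. The share of all 9822 genes tested in both lines that met this condition was not counted. By calls alone, 115 of those genes were higher in KP and lower in LLC1, and 105 the reverse. Many named genes were chosen by size or by separate groups in KP. The difference between the lines was not tested, since the tables were normalised separately. Log2 differences are given for KP and then for LLC1, with limma's adjusted p for LLC1. Of matrix and adhesion genes, Sparc was at -0.63 in KP and 0.56 in LLC1 (adjusted p = 0.0044), Tnc at -0.60 and 1.40 (0.00039), Col5a1 at -0.47 and 0.77 (0.0024), Tgfbi at -0.86 and 0.67 (0.015), and Sdc2 at -0.45 and 0.37 (0.0088). Fibroblast markers had 0 of 15 higher in KP and 11 of 15 higher in LLC1, and their part in these values was not tested. The plasminogen activator Plat was at -0.35 in KP and 1.05 in LLC1 (0.00049), and the collagenase Mmp13 at 0.47 and -0.76 (0.00078). Of immune genes, Cxcl5 was at 1.27 in KP and -0.67 in LLC1 (0.013), Cd14 at 0.96 and -0.23 (0.0069), and Cd276 at -0.32 and 0.26 (0.015). The lactate exporter Slc16a3 was at 0.77 in KP and -1.03 in LLC1 (0.00082), the complex II subunit Sdhd at 0.25 and -0.23 (0.0096), the p53 target Cdkn1a at 0.27 and -0.29 (0.034), and the microtubule protein Map2 at -1.28 and 0.79 (0.00082).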

How the results depend on the processing

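Of the 131 named genes called between Chronic IFNG KP and Parental KP, 102 kept their call under every alternative and 0 changed direction. A filter at 3 log2 units tested 3347 genes and called 972, 410 higher and 562 lower, 69 of them by at least 1 log2 unit, and against relapse it called 2077, 870 higher and 1207 lower, over fewer genes tested. Counts with a pseudocount of 10 or 1 gave 630 or 666 genes past 1 log2 unit, since that scale is not compressed. Leaving out 1 library gave 1583 to 2583 called genes in KP, 1069 to 1508 higher and 514 to 1075 lower, with 103 to 188 past 1 log2 unit; both lowest counts of called and lower genes came without Chronic IFNG KP 1. In LLC1 the ranges were 1554 to 2748 called, 507 to 1057 higher and 1029 to 1691 lower. Median centring gave 1291 higher and 1508 lower (46.1% higher, against 58.7%), and quantile normalisation 1355 and 1318. No filter gave 2194 calls, the 2 groups alone 2046, library weights 2940 and no variance trend 2432. A fit with the replicate number as a block called 2383 genes, 1421 higher and 962 lower. The numbers are no more than shared numbers: same-numbered libraries correlated at 0.0568, 0.148 and 0.00583, and Chronic IFNG KP 3 correlated best with Parental KP 1. Genes with no call changed sign. With 1 library left out, log2 differences ran from -0.0575 to 0.3359 for Cd74, from -0.0529 to 0.0522 for Stat2, from -0.1904 to 0.0093 for Lcp1, from -0.2218 to 0.0491 for Lyz2, from -0.0686 to 0.1098 for Xist, from -0.0068 to 0.5318 for Col1a1, from -1.1434 to 0.0265 for Rnu3a and from -0.0229 to 0.0638 for Ptpn2. Ptpn2 was at -0.0038 under quantile normalisation and -0.0007 under median centring, and Xist was at -0.0087 with library weights. The cause of these changes was not tested. Genes near the lowest value, such as Cd274, Cxcl9 and Cxcl10, were removed by the chosen filter and have a test only in the fit with no filter.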
